A study of Homo sapiens with 12 samples.

Results

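Expression of the core genes of the Hippo pathway and of the cofactors of the TEAD transcription factors was examined in AGS and MKN45 cells treated with Verteporfin (VP). The genes were YAP1, WWTR1 (the gene of TAZ), TEAD1, TEAD3, TEAD4, VGLL1, VGLL4, LATS1, LATS2 and NF2, chosen by name, and they had 17 of the 47323 probes of the array, 10 of 20046 named genes. Each line had 3 arrays of VP-treated cells and 3 of DMSO-treated cells, 12 Illumina HumanHT-12 V4 arrays in 4 groups. AGS and MKN45 are established human gastric adenocarcinoma lines. VP is a porphyrin photosensitizer that is also used to disrupt the binding of YAP to TEAD, and DMSO is its solvent. The sample labels give a treatment of 36 h, the methods give another time, and no dose for the arrays is stated in the sources used here. Whether replicate arrays came from separate cultures is not said, so every p-value reflects array-to-array spread that may be technical.

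In the Hippo pathway, the kinases MST1 and MST2 (STK4 and STK3) activate LATS1 and LATS2, with NF2 (merlin) acting upstream at the membrane. LATS kinases phosphorylate YAP and TAZ, which are then held in the cytoplasm or degraded. Unphosphorylated YAP and TAZ enter the nucleus and bind TEAD1 to TEAD4, which recognise DNA directly. VGLL1 and VGLL4 compete with YAP and TAZ for TEAD. An RNA array does not see control by phosphorylation or location. In bulk RNA, fewer expressing cells and less RNA per cell cannot be told apart.

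The promoters shown here are those of VGLL1, TEAD3 and LATS2, which were called changed in the signals, and that of YAP1, the central coactivator. TEAD4 was also called, but no promoter entry was found for TEAD4 or TEAD1. Each run is the 250 bases before the RefSeq gene start in GRCh38.p14, read 5′ to 3′ on the strand of the gene, and capitals mark the TEAD motif CATTCC, or GGAATG on the other strand.
VGLL1: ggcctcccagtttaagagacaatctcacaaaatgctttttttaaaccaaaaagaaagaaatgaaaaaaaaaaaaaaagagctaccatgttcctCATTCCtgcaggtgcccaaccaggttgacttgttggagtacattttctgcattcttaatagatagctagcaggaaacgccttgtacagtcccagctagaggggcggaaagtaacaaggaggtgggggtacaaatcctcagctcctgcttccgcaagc
TEAD3: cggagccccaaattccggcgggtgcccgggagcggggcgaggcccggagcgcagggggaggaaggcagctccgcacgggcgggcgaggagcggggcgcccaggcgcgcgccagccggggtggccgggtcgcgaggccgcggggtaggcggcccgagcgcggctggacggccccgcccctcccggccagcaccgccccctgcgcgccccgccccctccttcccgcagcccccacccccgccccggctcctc
LATS2: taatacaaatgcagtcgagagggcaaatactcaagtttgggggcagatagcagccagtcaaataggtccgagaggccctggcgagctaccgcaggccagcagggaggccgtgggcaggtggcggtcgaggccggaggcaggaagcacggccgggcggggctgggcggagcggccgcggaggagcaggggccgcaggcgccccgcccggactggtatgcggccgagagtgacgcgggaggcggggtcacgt
YAP1: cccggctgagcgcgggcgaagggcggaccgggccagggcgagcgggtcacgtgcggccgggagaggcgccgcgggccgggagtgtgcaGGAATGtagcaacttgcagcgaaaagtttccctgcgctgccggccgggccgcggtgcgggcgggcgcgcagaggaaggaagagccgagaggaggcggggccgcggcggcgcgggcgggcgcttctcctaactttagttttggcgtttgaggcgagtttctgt
These lie at chrX:136531965-136532214 (+) for VGLL1, chr6:35497080-35497329 (-) for TEAD3, chr13:21061587-21061836 (-) for LATS2 and chr11:102110197-102110446 (+) for YAP1. The motif began 157 bases before the start of VGLL1 and 162 bases before that of YAP1. It was searched on both strands in the 15 promoter entries found for 8 of the 10 genes, and 2 of these held it, against 11.9% of all 35116 entries. Its presence is a match of letters only.

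The authors deposited 2 tables, and these did not give the same picture. The signals are linear probe intensities, and each comes with the detection p-value of its probe. The other, the value table, holds log2 levels quantile normalized within each line, with its names moved by 1 row past row 21197, where the values belong to the probe of the next row. Over 16021 probes, arrays of the same agent in the other line correlated at 0.960 to 0.977 in the signals, above arrays of the same line with the other agent (0.931 to 0.957). In the value table the same line with the other agent gave 0.987 to 0.993 and the same agent in the other line 0.938 to 0.950. Thus the signals grouped by agent and the value table by line, and 2 of the 12 value columns ranked their namesake among the signal columns first by Spearman correlation. Whether the signal columns carry the right names, or whether both tables come from the same hybridizations, could not be settled from the files. Every comparison of the signals rests on those names. The tables also gave opposite directions for FAT1, an atypical cadherin among the other Hippo genes. In the signals FAT1 was called higher with VP in AGS by 0.62 (limma adjusted p = 0.00137) and was at 0.29 in MKN45 (adjusted p = 0.0855). The value table had FAT1 lower with VP in both lines, at -2.17 for AGS (adjusted p = 1.63e-16) and -1.50 for MKN45 (adjusted p = 2.02e-13). For FAT1 the direction of the signals is opposite to that given by the study, and that of the value table is the same. Besides its arrays, the study reports less FAT1 with VP by western blot and qRT-PCR, and in organoids. Results are given from the signals, whose detection p-values allow a filter, with the value table beside them. The median signal per array was 98.4 to 137 and 14523 to 16571 probes per array were detected. Epithelial markers (EPCAM, CDH1, KRT8, KRT18, KRT19) were detected on all arrays of both lines. Of 6 fibroblast, 4 endothelial and 5 leukocyte markers, CD68, also a lysosomal protein of other cells, was the one detected on all arrays.

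Of the 10 genes, 6 were read in the signals, that is, some group had all 3 of its arrays below a detection p-value of 0.01. YAP1, TEAD3, TEAD4 and VGLL4 were detected on all 6 arrays of AGS and all 6 of MKN45. VGLL1 was detected on 3 of 6 arrays in each line, all from DMSO-treated cells. LATS2 was detected on all 3 AGS VP arrays and on 1 of 3 arrays in each of AGS DMSO, MKN45 VP and MKN45 DMSO. WWTR1, TEAD1, LATS1 and NF2 were not read.

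**Figure D1:**
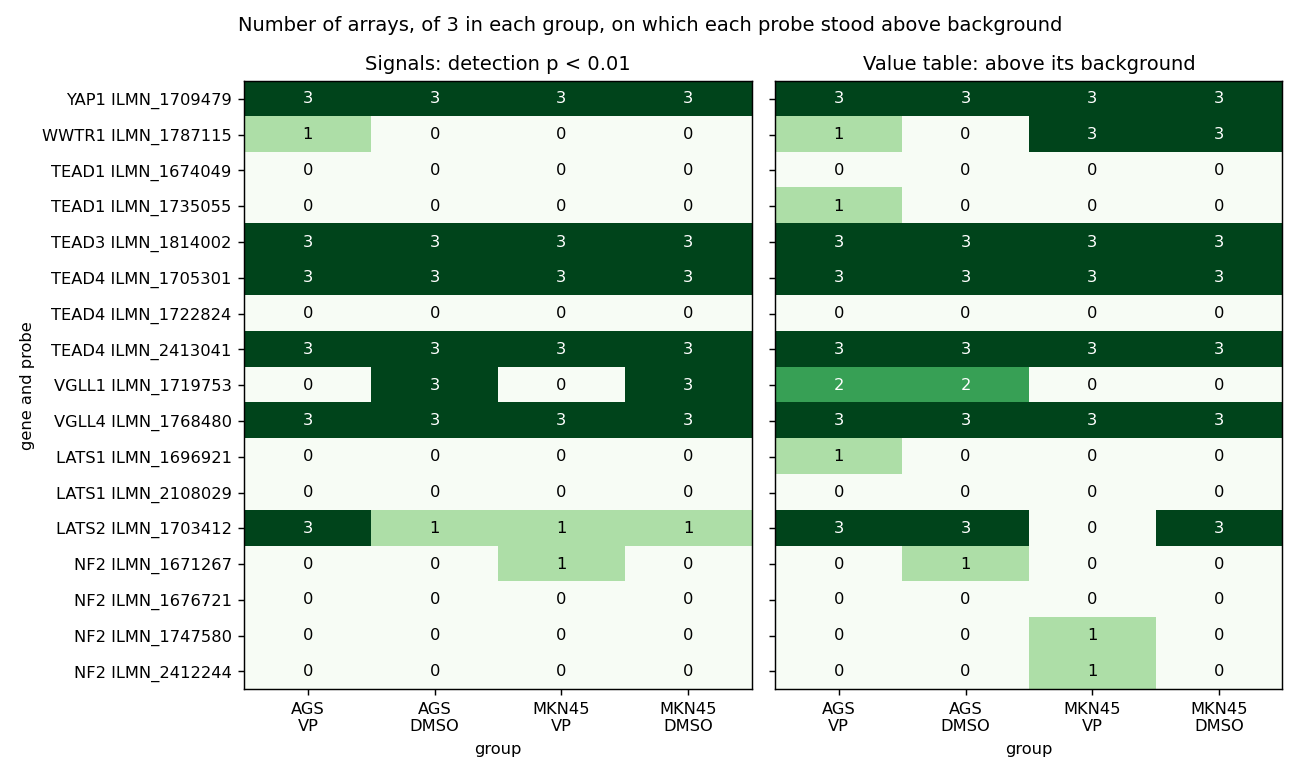
Number of arrays, of 3 in each group (columns), on which each of the 17 probes (rows) stood above background, in the signals (left, detection p-value under 0.01) and in the value table (right, above the background of that table). VGLL1 was detected on 0 of 3 VP and 3 of 3 DMSO arrays of each line in the signals, and WWTR1 stood above background on all 6 MKN45 arrays in the value table alone.

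The unread probes stayed near the signal of the array as a whole. The 2 probes of TEAD1, a TEAD factor, lay between 88.4 and 127 on all 12 arrays with 0 detections. The 2 probes of LATS1, a kinase that phosphorylates YAP, lay between 82.8 and 140 with 0 detections. NF2 had 4 probes with signals of 94.0 to 148 and 1 detection, on 1 MKN45 VP array. Another probe of TEAD4, ILMN_1722824, had signals of 90.4 to 138 with 0 detections, although the other 2 probes of TEAD4 were detected on every array. A low signal therefore bounds what a probe read and does not show that a gene was silent.

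Against DMSO in AGS, VP was called to change 4 of the 6 genes read, with VGLL1, TEAD3 and TEAD4 lower and LATS2 higher. In MKN45, 2 of 6 were called, VGLL1 and TEAD4, both lower. YAP1 and VGLL4 passed the test in neither line. VGLL1 entered the test only through the DMSO groups, where it was high, and LATS2 only through AGS VP, so their place among the calls was in part fixed by the detection filter. Of the 4 genes detected on all 12 arrays (YAP1, TEAD3, TEAD4 and VGLL4), 2 were lower in AGS and 1 in MKN45. Calls were frequent on these arrays, with 51.6% of the 16021 probes called in AGS and 42.0% in MKN45, and these counts are to be read against those shares. A call is an adjusted p-value under 0.05 in limma, with Benjamini-Hochberg adjustment over all 16021 probes. The median change of the 4 genes was -0.22 in AGS and -0.17 in MKN45 on the log2 scale, beside -0.032 and -0.023 over all probes tested. When arrays were scaled by their median in place of quantile normalization, the share of called probes that were higher was 71.8% in AGS and 85.0% in MKN45, against 46.8% and 50.3%, and the calls of TEAD3 and TEAD4 were lost.

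**Figure D2:**
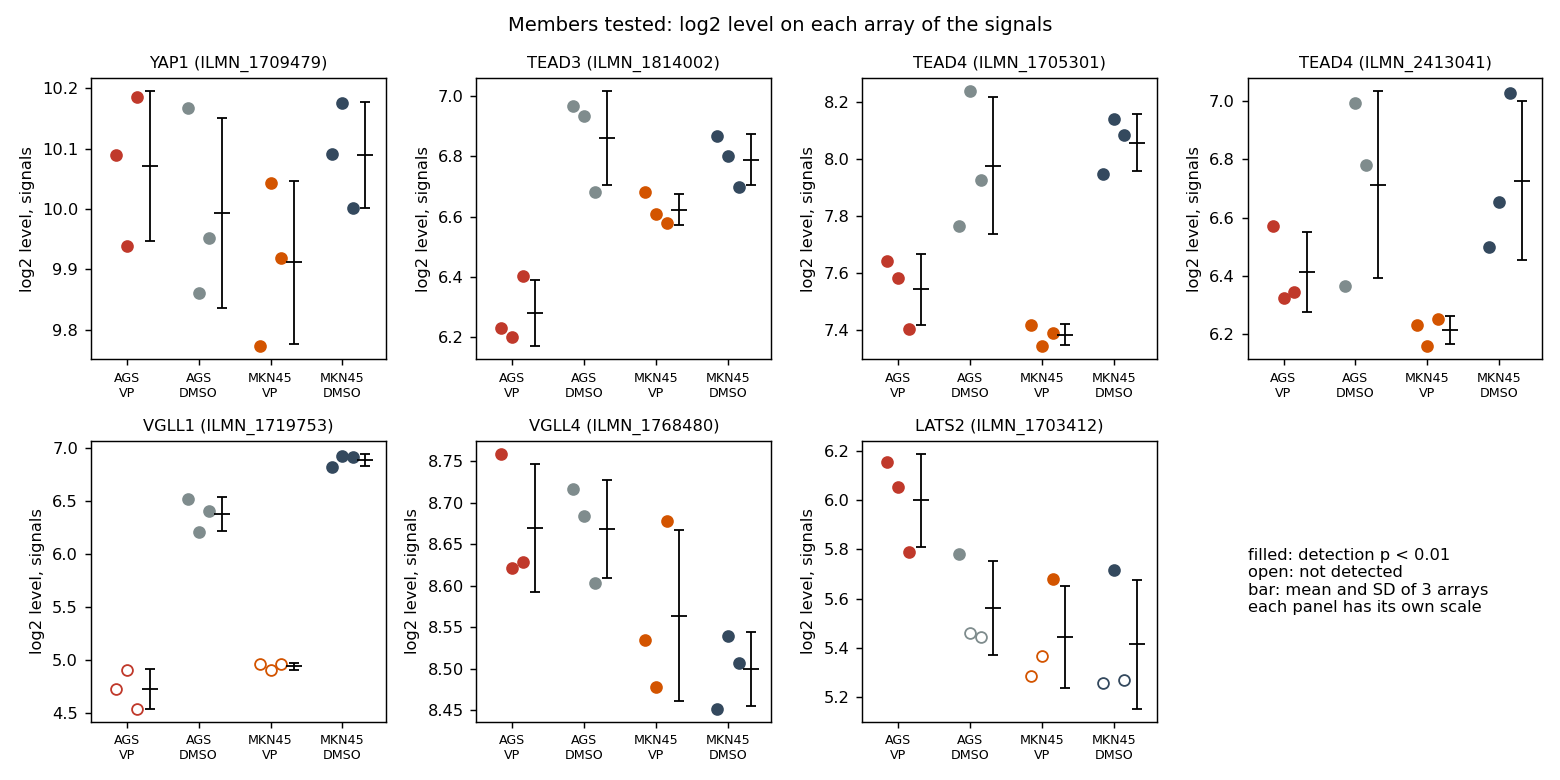
Normalized log2 level (vertical axes, each panel with its own scale) of the 7 probes read in the signals on each array, by group, with the mean and SD of 3 arrays as bars. Filled points were detected and open points were not. VGLL1 lies at 4.54 to 4.96 on the VP arrays of both lines and at 6.21 to 6.93 on the DMSO arrays.

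YAP1 encodes YAP, which binds TEAD factors and activates transcription. Its log2 level was 10.09, 9.94 and 10.19 on the AGS VP arrays and 10.17, 9.86 and 9.95 on the AGS DMSO arrays. In MKN45 it was 9.77, 10.04 and 9.92 with VP and 10.09, 10.18 and 10.001 with DMSO. The arrays of VP and DMSO overlapped in both lines. The change was 0.078 ± 0.12 (SE) in AGS (limma adjusted p = 0.598) and -0.18 ± 0.12 in MKN45 (adjusted p = 0.234). The 95% intervals ran over -0.17 to 0.33 and -0.43 to 0.071, and changes within them were not excluded with 3 arrays a group. The level in DMSO differed by -0.096 between AGS and MKN45 (adjusted p = 0.634).

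The value table gave another account of YAP1. There, YAP1 stood at 9.56 to 9.65 in AGS VP, at 9.65 to 9.85 in AGS DMSO, at 7.76 to 7.88 in MKN45 VP and at 7.42 to 7.62 in MKN45 DMSO. All 6 AGS arrays were above all 6 MKN45 arrays. The table was normalized within each line, so the levels of the lines are not formally on one scale, but the largest gap between their distributions at the same rank was 0.085, and YAP1 was above 93.1% to 94.3% of probes in AGS and 77.6% to 82.6% in MKN45. Within MKN45, YAP1 was higher with VP than with DMSO by 0.28 ± 0.066 (adjusted p = 0.00436), and within AGS the change was -0.13 ± 0.066 (adjusted p = 0.168). The changes in the lines differed by -0.41, AGS minus MKN45 (adjusted p = 0.00726), whereas in the signals the same difference was 0.26 with the opposite sign (adjusted p = 0.336).

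**Figure D3:**
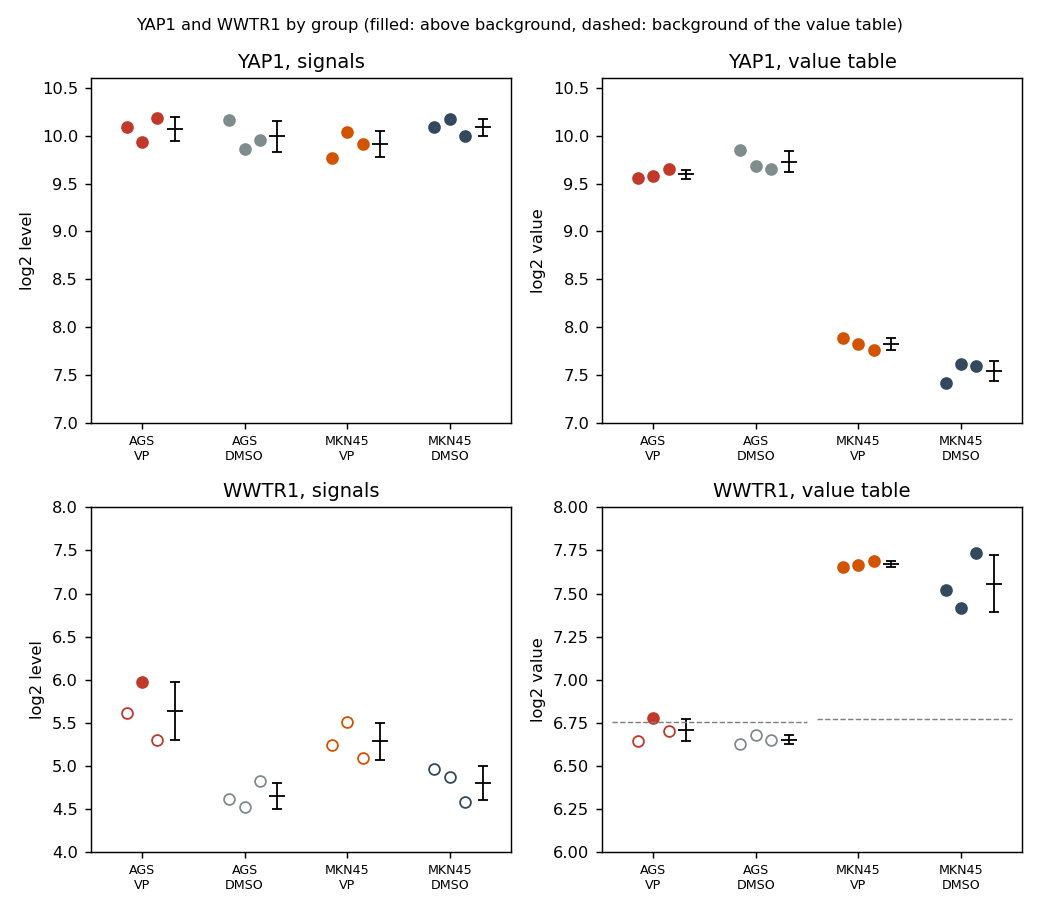
Log2 level of YAP1 (top) and WWTR1 (bottom) on each array of the signals (left) and of the value table (right), by group, with the mean and SD of 3 arrays. Filled points were above background and dashed lines mark the background of the value table in each line, 6.75 in AGS and 6.77 in MKN45. YAP1 overlapped between the lines in the signals and stood 9.56 to 9.85 in AGS against 7.42 to 7.88 in MKN45 in the value table.

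WWTR1 encodes TAZ, the paralogue of YAP. In the signals its detection p-value was under 0.01 on 1 of 12 arrays, an AGS VP array with a signal of 175. The linear signals were 138, 175 and 134 in AGS VP and 103, 98.9 and 121 in AGS DMSO, and 133, 151 and 129 in MKN45 VP and 109, 137 and 89.4 in MKN45 DMSO. These linear signals of VP and DMSO arrays overlapped in MKN45 and not in AGS. The normalized log2 levels did not overlap in either line. They were 5.30 to 5.98 with VP and 4.53 to 4.82 with DMSO in AGS, and 5.09 to 5.51 and 4.58 to 4.96 in MKN45. No test is given here for signals so close to background.

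By the value table, WWTR1 was above background on all 6 MKN45 arrays, at 7.65, 7.67 and 7.69 with VP and 7.52, 7.42 and 7.74 with DMSO. In AGS it was above background on 1 of 6 arrays, at 6.65, 6.78 and 6.70 with VP and 6.63, 6.68 and 6.65 with DMSO. In that table YAP1 was thus the higher in AGS and WWTR1 the higher in MKN45, given as a description. The WWTR1 difference, VP minus DMSO, was 0.057 in AGS, at an adjusted p of 0.600, and 0.11 in MKN45, at 0.284. Neither passed the test.

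TEAD3 and TEAD4 are DNA-binding partners of YAP and TAZ. The TEAD3 level was 6.23, 6.202 and 6.40 in AGS VP and 6.97, 6.93 and 6.68 in AGS DMSO, with no overlap between the groups. TEAD3 fell by 0.58 ± 0.11 on the log2 scale in AGS (adjusted p = 0.000498), to 66.8% of the DMSO level. In MKN45 it was 6.68, 6.61 and 6.58 with VP and 6.87, 6.80 and 6.70 with DMSO, also without overlap. These are normalized levels, and the linear signals of TEAD3 overlapped in both lines. They were 163 to 188 with VP and 179 to 190 with DMSO in AGS. MKN45 gave 209 to 220 with VP and 150 to 246 with DMSO. The MKN45 change of -0.17 ± 0.11 did not pass the test (adjusted p = 0.226), and the exact permutation p, two-sided, was 0.1, the smallest that 3 against 3 arrays can give. The changes in the lines differed by -0.42 ± 0.15 (adjusted p = 0.0988). Across the comparison of changes between lines, 0 of the 6 genes were called, against 9.04% of all probes, and 1 gene (TEAD3) had an unadjusted limma p under 0.05, at 0.0158.

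TEAD4, read by probe ILMN_1705301, had a level of 7.64, 7.58 and 7.40 in AGS VP and 7.76, 8.24 and 7.92 in AGS DMSO. In MKN45 the levels were 7.42, 7.34 and 7.39 with VP and 7.95, 8.14 and 8.08 with DMSO. At these normalized levels every VP array lay below every DMSO array of its line. The linear signals of TEAD4 overlapped in both lines. They were 265 to 325 with VP and 269 to 311 with DMSO in AGS. MKN45 gave 297 to 303 with VP and 265 to 468 with DMSO. TEAD4 fell by 0.43 ± 0.12 in AGS (adjusted p = 0.00986) and by 0.67 ± 0.12 in MKN45 (adjusted p = 0.000784). With the methods' t-test the AGS call was lost (adjusted p = 0.101). The changes did not pass the test of a difference between lines (0.24, adjusted p = 0.401). The second detected probe, ILMN_2413041, fell by 0.51 in MKN45 (adjusted p = 0.0226), and in AGS its arrays overlapped (change -0.30, adjusted p = 0.143).

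TEAD3 and TEAD4 did not show these falls in the value table. TEAD3 was 7.48, 7.47 and 7.62 in AGS VP and 7.67, 7.26 and 7.39 in AGS DMSO, a change of 0.084 (adjusted p = 0.492), and 0.0027 in MKN45 (adjusted p = 0.989). TEAD4 was 9.22, 9.16 and 9.16 in AGS VP and 8.99, 9.003 and 9.03 in AGS DMSO, which was called higher by 0.17 (adjusted p = 0.0311). In MKN45 the TEAD4 change was 0.084 (adjusted p = 0.359). Of the 6 genes read in the value table, YAP1, WWTR1, TEAD3, TEAD4, VGLL4 and LATS2, 1 was called in AGS (TEAD4), 1 in MKN45 (YAP1) and 1 for the difference between the lines (YAP1). All probes gave 23.5%, 18.1% and 9.23% called in these comparisons.

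VGLL1, a TEAD cofactor that uses the same TEAD surface as YAP, had the largest change of the 6 genes in the signals. Its level was 4.73, 4.91 and 4.54 in AGS VP and 6.52, 6.21 and 6.40 in AGS DMSO. In MKN45 it was 4.96, 4.90 and 4.96 with VP and 6.82, 6.93 and 6.91 with DMSO. The probe was not detected on any VP array, so the size of the change is given as a bound. VGLL1 was at least 1.66-fold lower with VP in AGS and at least 2.40-fold lower in MKN45. The limma adjusted p-values, 1.60e-07 and 5.66e-08, belong to the measured changes of -1.65 and -1.94, and the bounds were not tested. Those changes use undetected VP values, for a probe that passed the filter only through the DMSO groups. The bound sets the mean of the DMSO arrays against the lowest level of any detected probe on each VP array, or the probe's own level where higher. In DMSO, VGLL1 was lower in AGS than in MKN45 by -0.51 ± 0.11 (adjusted p = 0.00886), the 1 call of 6 genes in the comparison of the lines, where 15.2% of probes were called.

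The value table did not show this pattern for VGLL1. Its values were 6.79, 6.92 and 6.75 in AGS VP and 6.83, 6.85 and 6.73 in AGS DMSO, close to the background of 6.75, with 2 of 3 arrays above it in each group. In MKN45 they were 6.66, 6.69 and 6.47 with VP and 6.61, 6.65 and 6.66 with DMSO, with 0 of 6 arrays above 6.77. VGLL1 was therefore not tested there.

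VGLL4, a repressor of TEAD output that also competes with YAP, stood at 8.76, 8.62 and 8.63 in AGS VP and 8.72, 8.68 and 8.60 in AGS DMSO. Its levels were 8.53, 8.48 and 8.68 in MKN45 VP and 8.45, 8.54 and 8.51 in MKN45 DMSO. VP and DMSO arrays overlapped in both lines. The change was 0.0012 in AGS (95% interval -0.20 to 0.20, adjusted p = 0.992) and 0.064 in MKN45 (-0.14 to 0.27, adjusted p = 0.612). The corresponding changes of VGLL4 in the value table were -0.097 in AGS, with an adjusted p of 0.226, and -0.064 in MKN45, with 0.490.

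LATS2, the kinase paralogous to LATS1 and itself a known transcriptional target of YAP, was near the limit of detection. Its level was 6.15, 6.05 and 5.79 in AGS VP and 5.78, 5.46 and 5.45 in AGS DMSO, and the lowest VP array exceeded the highest DMSO array by little. The measured difference in AGS was 0.44 ± 0.16 (adjusted p = 0.0341), for a gene that entered the test through AGS VP alone. The call was lost without a detection filter, with the methods' t-test (adjusted p = 0.0966), and without AGS DMSO replicate 2 or 3 or AGS VP replicate 1 or 2, at adjusted p-values of 0.0897 to 0.121. In MKN45 it was 5.29, 5.37 and 5.68 with VP and 5.26, 5.72 and 5.27 with DMSO, with overlapping arrays and a change of 0.029 (adjusted p = 0.901). The LATS2 difference in the value table was 0.030 in AGS, with an adjusted p of 0.737, and the MKN45 value was -0.078, with 0.362.

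**Figure D4:**
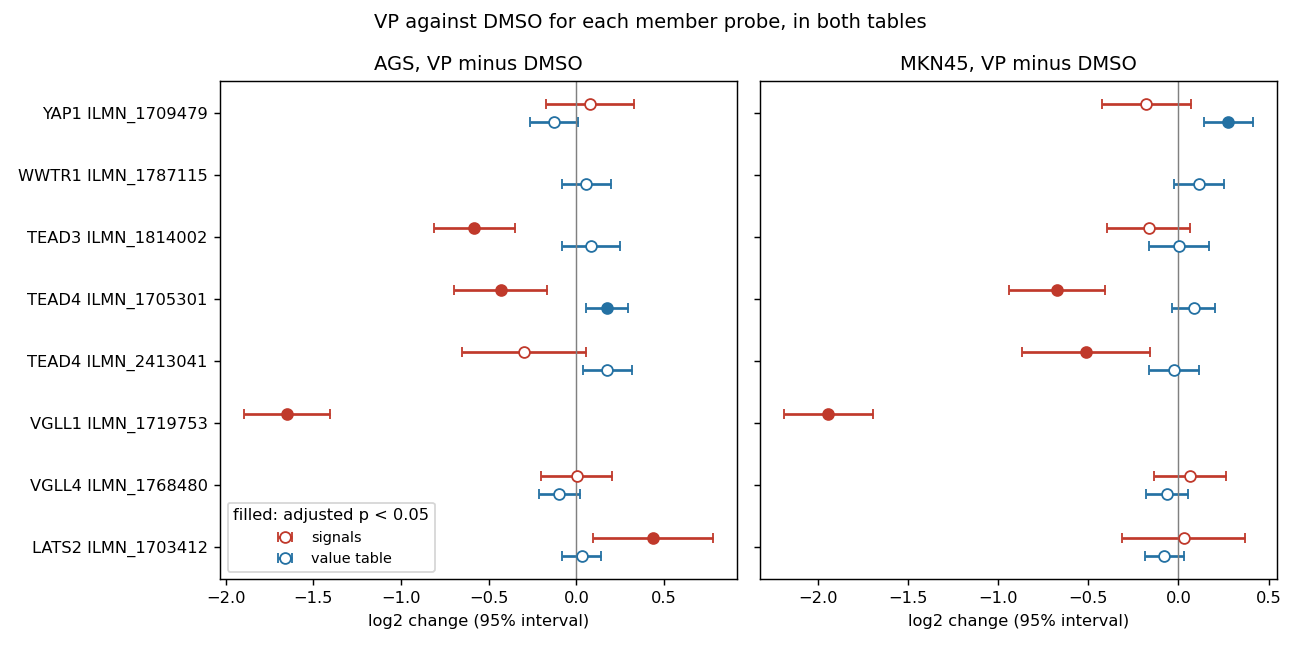
Log2 change with VP over DMSO (horizontal axes, with 95% intervals) for each probe tested in the signals (red) or the value table (blue), in AGS (left) and MKN45 (right). Filled points had an adjusted p-value under 0.05, and the values of VGLL1 are as measured, below the detection limit with VP. TEAD4 was lower with VP in the signals of both lines (-0.43 and -0.67) and not in the value table (0.17 and 0.084).

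The genes around these 10 were then examined. A list of 78 other Hippo genes was on the array, covering the core kinases, upstream kinases, NF2 partners, junction and polarity proteins, LATS inhibitors, the STRIPAK phosphatase and the 14-3-3 and degradation machinery, and 59 were read. In AGS 25 of 59 were called, 17 higher and 8 lower, and in MKN45 18 of 59, 12 higher and 6 lower. These are 42.4% and 30.5%, below the shares over all probes. With median scaling the split was 21 higher and 3 lower in AGS and 19 higher and 1 lower in MKN45, and without MKN45 VP replicate 2 the MKN45 count was 11. The median change was 0.14 in AGS and 0.0078 in MKN45, beside -0.032 and -0.023 over all probes. The value table called 11 of 59 in AGS (6 higher, 5 lower) and 8 of 59 in MKN45 (3 higher, 5 lower).

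Among the core kinases and their scaffolds (5 of 5 read), STK3 and STK4, which activate LATS1 and LATS2, rose in AGS by 0.31 and 0.30 (adjusted p = 0.0128 and 0.0277). In MKN45, MOB1A, a LATS coactivator, rose by 0.33 (adjusted p = 0.0287) and SAV1, the scaffold of the MST kinases, fell by 0.49 (adjusted p = 0.0492). The SAV1 changes differed between the lines by 0.76 (adjusted p = 0.0872). Of these 5 genes, 2 were called in each line, or 40%, where 51.6% and 42.0% of all probes were called. TEAD2, the fourth TEAD factor, fell by 0.46 in AGS (adjusted p = 0.00358), and its change in MKN45 was -0.27 (adjusted p = 0.0708). In the value table STK3 and STK4 were not called in AGS (0.092 and 0.036). STK4 was called lower there in MKN45 (-0.23, limma adjusted p = 0.0234). MOB1B, also on this list, was called lower in AGS (-0.22, adjusted p = 0.0229). SAV1 and MOB1A were not called in MKN45 (0.036 and 0.13), nor was TEAD2 in AGS or MKN45 (0.093 and 0.069).

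Of the 59 genes, 8 rose in both lines, 4 fell in both and 0 were called in opposite directions. Over all 16021 probes, 15.2% were called higher in both lines, 15.1% lower in both and 0.618% in opposite directions. Among upstream kinases that can act on LATS, TAOK3 rose by 1.004 in AGS and 0.76 in MKN45, and TNIK by 0.74 and 0.87. TAOK2, a related kinase, fell by 1.20 in AGS and 0.52 in MKN45. At junctions, CRB3, a polarity protein, rose by 0.92 and 0.75. PTPN14, a phosphatase that binds YAP, rose by 1.02 and 0.40. CTNNA1 (alpha-catenin) rose by 0.49 and 0.52, and SCRIB, a basolateral scaffold, fell by 0.92 and 0.57.

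AJUBA, a LIM protein that inhibits LATS, rose by 0.73 in AGS and 0.45 in MKN45. In STRIPAK, which dephosphorylates MST kinases, CTTNBP2NL, detected on 1 of 3 AGS DMSO arrays, rose by 1.49 and 1.12 and MOB4 fell by 0.33 in each line. SIKE1 was not detected on any DMSO array, and on 2 of 3 VP arrays in AGS and 3 of 3 in MKN45. It was at least 1.01-fold higher with VP in AGS, where VP and DMSO arrays overlapped, and at least 1.34-fold higher in MKN45. SIKE1 entered the test only through MKN45 VP, so its place among the genes that rose was in part fixed by the detection filter. SFN, the 14-3-3 protein sigma, fell by 0.77 and 0.80. All 12 had adjusted p-values of 0.0248 or less in limma in both lines. For SIKE1 these belong to the measured differences, which use undetected DMSO values, and not to the bounds.

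The value table did not carry these 12 genes in the same way. Of the 11 read there, 1 was called in the direction of the signals in AGS, 3 were called in the opposite direction and 7 were not called. In MKN45, 2 were called in the direction of the signals, 0 in the opposite direction and 9 were not called. In AGS, CRB3 was higher by 0.41 (adjusted p = 3.39e-05) as in the signals. SFN was higher by 0.36 (adjusted p = 0.000141), and AJUBA and PTPN14 were both lower by -0.21 (adjusted p = 0.00917 and 0.0155), opposite to the signals. In MKN45, AJUBA was higher by 0.21 (adjusted p = 0.0108) and MOB4 lower by -0.18 (adjusted p = 0.0312), and CRB3 was at 0.17 (adjusted p = 0.0680). CTTNBP2NL, with the largest change of the 12 in the signals, was at 0.0047 and -0.098.

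**Figure D5:**
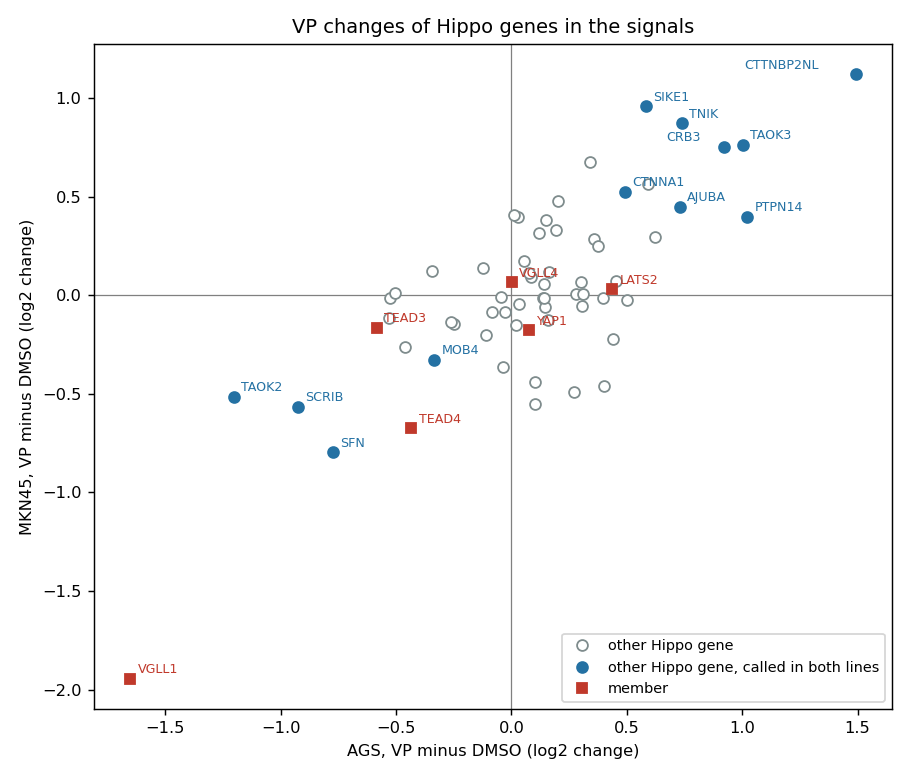
Log2 change with VP over DMSO in AGS (horizontal) and MKN45 (vertical) in the signals, for the 6 genes read (red squares) and the 59 other Hippo genes (circles, filled where called in both lines). The 8 genes that rose in both lines lie at upper right and the 4 that fell at lower left, with VGLL1 at the lowest corner. VGLL1 and SIKE1 are shown at their measured values.

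Of 20 further genes listed as targets of YAP and TEAD, 14 were read. In AGS 4 were higher and 4 lower with VP, and in MKN45 7 were higher and 3 lower. These 8 and 10 of 14 are 57.1% and 71.4%, where 51.6% and 42.0% of all probes were called. With median scaling 5 were higher and 1 lower in AGS, and 8 higher and 1 lower in MKN45. ANKRD1, a cardiac ankyrin repeat protein and widely used YAP readout, fell by 1.88 in AGS and 0.77 in MKN45. CCN2 (connective tissue growth factor) fell by 0.36 in AGS and was higher by 0.83 in MKN45. GADD45A, a stress-response gene, rose by 0.56 and 0.84. CRIM1, a transmembrane protein, was at least 1.28-fold lower in AGS, where it was detected on 0 of 3 VP and 2 of 3 DMSO arrays. It fell by 0.50 in MKN45, with detection on 2 of 3 VP and 3 of 3 DMSO arrays. CRIM1 entered the test only through MKN45 DMSO, so its place among the targets called lower was in part fixed by the detection filter. AJUBA and PTPN14, described above, were on this list too. CCN2 was lower with VP in both lines of the value table, by -0.81 in AGS and -0.26 in MKN45, and ANKRD1 was higher by 0.41 in AGS. CRIM1 was called lower there in both lines (measured changes of -0.31 in AGS and -0.17 in MKN45). It stood above background on 0 of 3 VP and 3 of 3 DMSO arrays of each line. GADD45A, read there by another probe, was called higher in AGS (0.37) and was not called in MKN45 (0.090). The value table called 2 of 16 targets higher and 8 lower in AGS, and 1 higher and 6 lower in MKN45. These are 62.5% and 43.8%, beside 23.5% and 18.1% of all probes of that table. Probes called lower there were 11.2% of all in AGS and 9.25% in MKN45.

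Over the 12 arrays of the signals, the genes whose level was most like that of YAP1 among 9695 were PSIP1 (Pearson r = 0.81), EZR-AS1 (0.76), HPRT1 (0.76), PAK2 (0.75) and NCK1 (0.74). This is a description across arrays that share lines and agents.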

How the data were processed

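The authors deposited linear probe signals (intensity) with detection p-values from GenomeStudio, version not given in the sources used here. Whether background had been subtracted is not stated. They also deposited a value table of log2 values (held as a score, since 1 row holds linear signals), quantile normalized with limma per the methods, within each line. Past row 21197 the names of 26126 rows were moved by 1.

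Signals were background corrected with the detection p-values (normexp, offset 16), quantile normalized over 12 arrays and log2 transformed with limma 3.58.1 in R 4.3.3. The filter, a detection p below 0.01 throughout any 1 group, left 16021 of 47323 probes. The platform annotation gives 1 symbol to 30113 probes, several to 8 and none to 17202. Groups were compared by limma with group means and Benjamini-Hochberg adjustment over all probes, and the brightest kept probe stood for a gene. In the value table, 17549 probes above a background of the mode plus 3 SD were kept. There VP was tested against DMSO within each line, in a fit over all 12 arrays. The difference between the changes of the lines was tested too. A member probe was also given an exact permutation p where overlap is discussed. The number of arrays limits the precision.

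Members and lists were chosen with earlier results of these data known. The other genes named are Hippo genes called the same way in both lines or among the 5 largest changes, and targets called in both. STK3, STK4, SAV1, MOB1A, MOB1B, TEAD2 and FAT1 were named after their values were seen. The study names both a two-sample test, in a legend, and the random variance form of BRB-ArrayTools. The methods' t-test here is the pooled-variance two-sample form, two-sided, with p from the t distribution, called after Benjamini-Hochberg adjustment; the random variance form and the permutations were not run. The steps were tested on simulated data. Alternatives were median scaling, within-line scaling, no background correction, other filters, probe rules, the methods' t-test, a replicate block, single lines, the value table and leaving out each array.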

Additional observations from a re-analysis of the deposited data

Results flagged for a closer look

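In the value table, the VP change of YAP1 differed between the lines by -0.41, AGS minus MKN45 (limma adjusted p = 0.00726, 3 arrays a group), and so passed the test of a difference between the lines. YAP1 was higher with VP on all 3 MKN45 arrays than on any DMSO array of that line. In the signals the same difference was 0.26 (adjusted p = 0.336).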

How the results depend on the processing

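Of the results from the signals, the VGLL1 falls kept their call under all alternatives run (measured changes of -1.65 to -0.65 in AGS and -2.04 to -0.80 in MKN45). Those alternatives used the same signals, where VGLL1 was undetected on every VP array and passed the main filter only through DMSO groups. The value table, with measured differences of 0.014 in AGS and -0.033 in MKN45, could not test these falls. The number of the 6 genes called in AGS was 4, against 2 with median scaling, 2 with the methods' t-test and 1 in the value table. It was 6 of 8 read with the looser detection filter and 5 of 10 without a filter. WWTR1 and NF2 passed the looser filter only through VP groups. Over all probes, AGS calls were 8631 of 19494 with the looser filter, 6983 of 47323 without a filter and 6445 of 16021 with median scaling. In MKN45 the number of the 6 genes called was 2, against 1 with median scaling and 1 in the value table. For the difference between the lines it was 0, against 1 of 8 read with the looser detection filter (NF2, which passed that filter only through MKN45 VP, its highest group, and was not above background on any AGS VP array), and 1 in the value table. The other Hippo genes called were 25 in AGS, against 16 with the methods' t-test and 11 in the value table, and 18 in MKN45, against 8 in the value table. Leaving out 1 array at a time gave 18 to 26 in AGS and 11 to 21 in MKN45, the lowest without MKN45 VP replicate 2. Median scaling moved the median of all probes to 0.15 in AGS and 0.25 in MKN45, and turned YAP1 in MKN45 (0.15), TEAD3 in MKN45 (0.12) and TEAD3 between the lines (-0.099). Relative to that median TEAD3 was at -0.46 in AGS, TEAD4 at -0.35 in AGS and -0.60 in MKN45. The value table turned YAP1 in AGS (-0.13), in MKN45 (0.28) and in the difference (-0.41), TEAD3 in AGS (0.084), in MKN45 (0.0027) and in the difference (0.082), TEAD4 in AGS (0.17) and MKN45 (0.084), VGLL4 in AGS (-0.097) and MKN45 (-0.064) and LATS2 in MKN45 (-0.078); the cause was not tested. Leaving out 1 array at a time turned TEAD4 between the lines (-0.21 to 0.024), VGLL4 in AGS (-0.044 to 0.026) and LATS2 in MKN45 (-0.088 to 0.18). LATS2 in AGS also lost its call without background correction, without a filter, and with the methods' t-test (adjusted p = 0.0966), which also ended the call of TEAD4 in AGS (0.101). At the study's own threshold, an unadjusted p under 0.001, the methods' t-test called 1 of the 6 genes in AGS and 2 in MKN45, 5 and 3 of the other Hippo genes, and 1996 and 1237 of all probes. The replicate numbers do not pair the arrays (correlation of deviations -0.11 to 0.21). With replicate number as a block 4 and 2 of the 6 genes were called, 0 for the difference, and 25 and 22 other Hippo genes, and no call of the 6 genes changed. Over all probes, calls were 8268 in AGS and 6732 in MKN45, against 4132 and 3172 in the value table and 6083 and 4430 with the methods' t-test, and for the difference 1449, against 495 with median scaling and 652 without a filter.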
